A study of Mus musculus with 6 samples.

Results

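Notch receptors, their ligands and genes of the Hes family were compared between spinal cords with and without Tnc, the gene for the extracellular matrix glycoprotein tenascin-C. The 10 genes were chosen by name: the receptors Notch1, Notch2 and Notch3, the ligands Dll1, Dll3, Jag1 and Jag2, and the Hes genes Hes1, Hes5 and Hes6. Each was read from the row of the deposited table whose only gene symbol in the platform annotation was its own, and each had exactly 1 such row, so that 10 of the 19938 genes measured were members. The samples were lumbar spinal cord dissected from SV129 mouse embryos at E15.5, 3 of them wild-type and 3 TNC -/- knockout, which the labels call biological replicates. No treatment was given, total RNA of each sample went onto 1 whole-transcript array, and the labels do not state which part of Tnc was removed or how the embryos fall into litters. Values are log2 signals after RMA, a method that corrects background, equalises arrays and summarises the probes of a gene, so a difference of 1 is a doubling of signal.

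Notch receptors are membrane proteins that are cut when a ligand on a neighbouring cell binds them, by ADAM proteases and then by gamma-secretase. The freed intracellular part enters the nucleus and joins the DNA-binding protein RBPJ and Mastermind-like coactivators, and this complex switches on Hes and Hey genes. In the embryonic spinal cord the Hes1 and Hes5 repressors hold down proneural genes and keep radial glia undifferentiated, while nascent neurons carry Delta-like ligands. Notch signalling is also known to favour the later turn from neurons to astrocytes.

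The arrays themselves set several limits. Their medians lay between 6.96 and 7.10. The 5 listed Hox genes of lumbar levels had a mean that lay between 10.69 and 10.89 per array, whereas the mean of the 4 measured forebrain genes lay between 5.87 and 6.44, around the background guide of 6.13 (a level that 95% of 1194 olfactory and vomeronasal receptor genes stay under). Radial glial genes averaged between 10.68 and 10.87 per array and neuronal genes between 12.10 and 12.18. Tnc read 10.72, 10.22 and 10.02 in wild-type replicates 1, 2 and 3 and 9.64, 9.76 and 9.47 in the knockout ones, so the targeted gene was lower in each knockout array but retained signal. Knockout replicates 1 and 3 showed Y-linked signal and wild-type arrays and knockout replicate 2 did not, so sex differs between the groups. Wild-type replicates 1 and 3 stood at opposite ends of the first principal component, which held 49.0% of the variance. Tissue signal of this kind cannot separate fewer cells of a type from less RNA per cell.

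Among the 9 members with a promoter window, only Hes5 carries the letters GTGGGAA, a core of the RBPJ binding motif, in it. Windows of 250 bases before to 50 bases after the start site were found for 9 members in the RefSeq table of build GRCm38.p6, and Hes1 is named without one. GTGGGAA was searched on both strands, and 6.38% of the 32851 mouse windows hold it at least once. Hes5 holds it at 226 bases (minus strand) and 83 bases (plus strand) before the start. Of all windows, 0.256% hold at least 2 copies, and one of them is that of Hey2, another Notch target among the pathway genes described further on. These windows are shown because Hes5 is the usual transcriptional readout of Notch in the cord, with the matches in capitals.

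Hes5 window, chr4:154960673-154960972, plus strand: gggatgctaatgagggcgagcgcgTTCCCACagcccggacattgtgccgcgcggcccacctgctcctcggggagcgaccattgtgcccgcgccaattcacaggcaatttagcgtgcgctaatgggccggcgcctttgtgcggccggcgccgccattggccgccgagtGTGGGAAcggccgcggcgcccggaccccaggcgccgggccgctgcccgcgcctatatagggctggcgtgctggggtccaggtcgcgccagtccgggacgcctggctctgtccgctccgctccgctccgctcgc

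Hey2 window, chr10:30842734-30843033, minus strand: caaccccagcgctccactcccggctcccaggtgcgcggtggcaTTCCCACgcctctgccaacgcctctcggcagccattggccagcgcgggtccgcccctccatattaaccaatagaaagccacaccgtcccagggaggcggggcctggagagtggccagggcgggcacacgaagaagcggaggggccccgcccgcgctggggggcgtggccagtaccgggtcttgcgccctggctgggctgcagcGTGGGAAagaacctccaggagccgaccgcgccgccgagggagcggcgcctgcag

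Hes6 differs from its relatives. In the mouse it is known as a gene induced by proneural factors that opposes Hes1 and promotes neuronal differentiation, and not as a direct Notch readout. Neither of its 2 RefSeq windows holds GTGGGAA. The proneural E-box form CAGNTG, searched on both strands with no overlap with GTGGGAA and held by 51.4% of all windows, is present 4 times across them, 3 times in the window shown here, and 18.2% of all windows hold it at least 2 times. Among the other members Dll3 has 2 copies and Hes5 and Jag1 have 1 each. Dll1, the ligand that proneural factors are known to switch on in newborn neurons, has 2 copies in its upstream window. The capitals mark CAGNTG on either strand, and these matches describe letters and not bound sites.

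Hes6 window, chr1:91413989-91414288, minus strand: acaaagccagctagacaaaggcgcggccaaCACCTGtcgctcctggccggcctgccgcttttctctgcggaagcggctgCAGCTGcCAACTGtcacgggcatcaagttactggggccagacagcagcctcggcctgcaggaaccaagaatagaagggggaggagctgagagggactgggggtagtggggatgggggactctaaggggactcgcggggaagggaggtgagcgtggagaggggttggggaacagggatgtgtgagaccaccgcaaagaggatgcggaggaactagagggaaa

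Dll1 window, chr17:15376883-15377182, minus strand: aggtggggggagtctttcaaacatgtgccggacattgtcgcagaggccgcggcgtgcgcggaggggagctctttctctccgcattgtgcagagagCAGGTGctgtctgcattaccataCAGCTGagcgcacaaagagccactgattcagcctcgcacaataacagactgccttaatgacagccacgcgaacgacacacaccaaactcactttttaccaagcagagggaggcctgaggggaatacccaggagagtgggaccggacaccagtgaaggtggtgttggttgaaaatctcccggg

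The comparison of knockout with wild type asked whether loss of tenascin-C altered the Notch system at the stage when astrocytes are specified. None of the 10 members passed an adjusted p of 0.05 in limma, and neither did any other gene (0% of 19938 called), while 339 genes had an unadjusted p under 0.05. All 10 members had an adjusted p that rounds to 1 in limma with Benjamini-Hochberg adjustment. The targeted gene Tnc was not called either, with a log2 difference of -0.69, an unadjusted p of 0.00380 and an adjusted p that rounds to 1. Missing this threshold therefore does not show that a gene was unaffected. By unadjusted p under 0.05 limma singled out 1 member, Jag2, where 1.70% of all genes met that level and 0.933% met it as higher in knockout. All 10 members read above the background guide. The log2 difference (knockout minus wild type) was positive in 6 members and negative in 4, with a median of 0.02, where 46.4% of all genes had a positive difference and the median was -0.01. By class, the median was -0.05 for the receptors, 0.05 for the ligands and 0.03 for the Hes genes, and no test was made between classes. Single arrays set these signs: leaving out wild-type replicate 1 left 1 member higher (Jag2, with Hes1 at 0), leaving out knockout replicate 1 left 9, the receptor median was 0.08 without knockout replicate 1, and the ligand and Hes medians were -0.06 and -0.05 without wild-type replicate 1. These class medians were smaller than the gap between knockout arrays of the same class, since the mean of the 3 receptors alone ran from 9.14 to 9.66 among the knockouts.

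**Figure D1:**
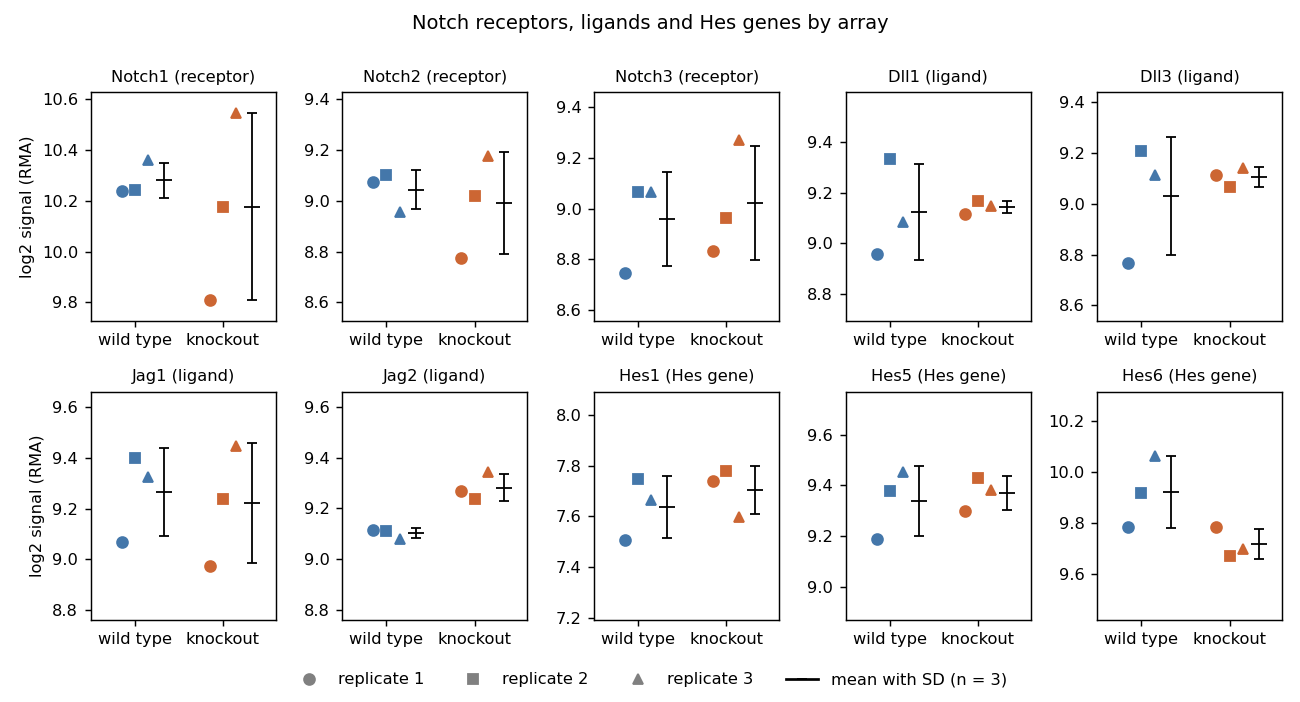
Log2 RMA signal of each gene (vertical axis, every panel spanning the same height) in the 3 wild-type (blue) and 3 knockout (orange) arrays, with marker shape giving the replicate number and black bars the mean with SD, n = 3. Jag2 is the gene whose groups do not overlap, Hes6 groups touch at 9.78, and the receptors and Jag1 are spread widely among the knockouts.

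The receptors stand at the start of the pathway, and their knockout values were widely spread. Notch1, the main receptor of neural progenitors, read 10.24, 10.24 and 10.36 in wild-type replicates 1, 2 and 3 and 9.81, 10.18 and 10.54 in knockout replicates 1, 2 and 3. The lowest and the highest of the 6 arrays were thus both knockouts. Wild type averaged 10.28 ± 0.07 and knockout 10.18 ± 0.37 (SD, n = 3 each). The log2 difference was -0.10, and its 95% confidence interval spanned -0.49 to 0.28. That interval allows a knockout signal from 71.4% to 121% of wild type.

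Notch2, another receptor of neural progenitors, read 9.07, 9.10 and 8.96 in wild type and 8.78, 9.02 and 9.18 in knockout. Again knockout replicate 1 was lowest and knockout replicate 3 highest of all. Its difference was -0.05, with an interval from -0.31 to 0.20. Notch3, known for its part in pericytes and vascular smooth muscle as well as in progenitors, read 8.75, 9.07 and 9.07 in wild type and 8.83, 8.96 and 9.27 in knockout. Its difference was 0.06 (interval -0.25 to 0.38), and the groups overlapped throughout.

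A shared spread among knockouts tied the receptors to one ligand. Jag1, known from cord progenitor domains that lack Dll1, read 9.07, 9.40 and 9.33 in wild type and 8.97, 9.24 and 9.45 in knockout. Notch1, Notch2, Notch3 and Jag1 all had knockout replicate 1 lowest, knockout replicate 3 highest and knockout replicate 2 between them, an order held by 22.2% of all genes. From the lowest to the highest knockout the signal of Notch1 was 1.66 times higher, that of Jag1 1.39 times, that of Notch3 1.36 times and that of Notch2 1.32 times. Among all 19938 genes the size of that gap put Notch1 at the 99.9th percentile, Jag1 at the 98.1st, Notch3 at the 97.2nd and Notch2 at the 95.9th. These 4 genes were picked out after their values were seen, so their common order is a description of 3 arrays.

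Several measured facts stand beside that spread, and their part in it was not tested. Knockout replicates 1 and 3, the ends of the spread, are the pair with Y-linked signal, and replicate 2, without it, lies between them. On the first principal component the knockouts stood at -8.33, -0.22 and 9.48 and the wild types further apart, at -18.5, -5.32 and 22.8. Over those wild types Notch1 ranged by 0.12, Notch2 by 0.14, Notch3 by 0.32 and Jag1 by 0.33. Notch3 and Jag1 were lowest in the wild-type array with the lowest component score, while Notch2 was lowest in the one with the highest score. Mean signal of endothelial genes in the knockouts was 8.86, 8.93 and 8.73, and that of pericyte genes 8.12, 8.25 and 8.14, neither in the order of the receptors. Lfng, a Fringe glycosyltransferase that tunes which ligand a receptor answers, read 9.72, 9.95 and 10.09 in the same 3 arrays. It was named outside the rule used for the other pathway genes. Other pathway genes, Dlk1 among them, and 22.2% of all genes held the same order.

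**Figure D2:**
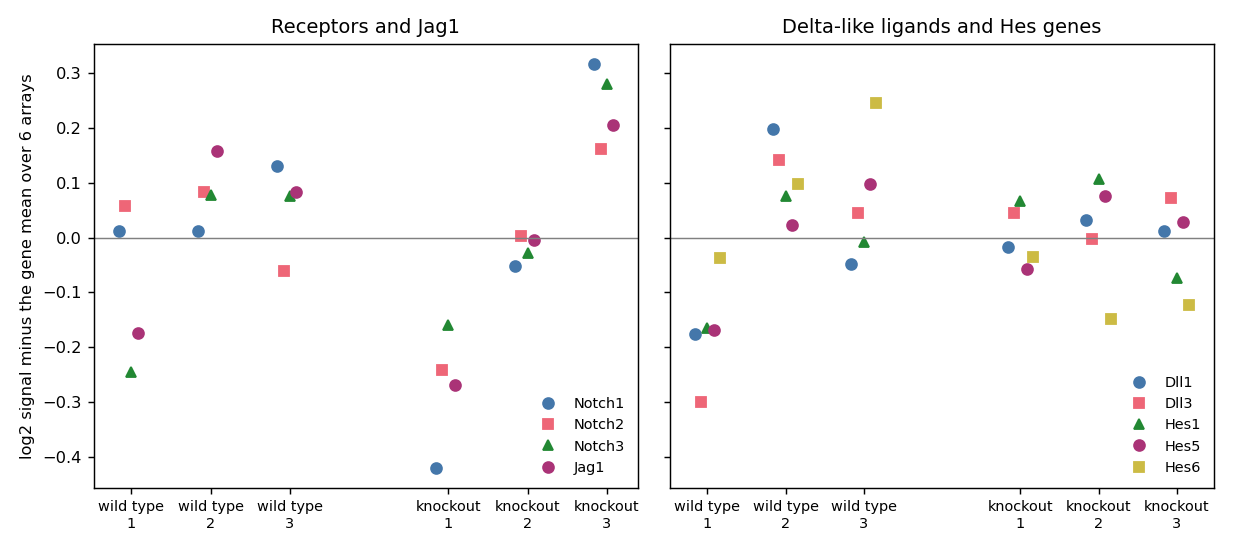
Log2 signal of 9 members minus each gene's mean over the 6 arrays (vertical axis) by array (horizontal axis), one symbol and colour per gene. Receptors and Jag1 (left) run from -0.42 for Notch1 in knockout replicate 1 to 0.32 in knockout replicate 3, while Dll1 and Dll3 (right) lie between -0.02 and 0.07 in the knockouts and are lowest in wild-type replicate 1.

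Delta-like ligands were spread less in knockout than in wild type, as most genes were, since 32.2% of all genes had the larger SD in knockout. Dll1, the activating ligand of nascent neurons, read 8.96, 9.33 and 9.09 in wild type and 9.12, 9.17 and 9.15 in knockout. Its knockout values lay within 0.05 of each other and inside the wild-type range. The means were 9.13 ± 0.19 and 9.14 ± 0.02 (SD, n = 3 each), and the difference was 0.02 (interval -0.22 to 0.25). Dll3, a divergent Delta-like protein that acts inside the cell that makes it and does not activate Notch in neighbours, read 8.77, 9.21 and 9.11 in wild type and 9.11, 9.07 and 9.14 in knockout. Both genes were lowest in wild-type replicate 1 and highest in wild-type replicate 2. The difference of Dll3 was 0.08, with an interval from -0.19 to 0.34.

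Wild-type replicate 1 held the lowest of the 6 values for 5 of the 10 members (Notch3, Dll1, Dll3, Hes1 and Hes5), where it held the lowest value for 29.0% of all genes. It was also lowest in the mean of the 7 proneural factors, at 7.88 against 7.96 to 8.28 in the other arrays, and in the mean of the 10 radial glial genes, at 10.68 against 10.77 to 10.87. Its low reading was not particular to these lists. The mean of all genes was lowest there too, at 7.82 against 7.84 to 7.89. So was that of the other pathway genes, at 9.26 against 9.30 to 9.37, while that of neuronal genes, at 12.17, was not. Without that array the differences of Dll1 and Dll3 were -0.07 and -0.05. The part of progenitor content in these values was not tested.

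Jag2 was the member with the clearest separation. This ligand of the Serrate type, related to Jag1, read 9.12, 9.11 and 9.08 in wild type and 9.27, 9.23 and 9.34 in knockout. All 3 knockout arrays lay above all 3 wild-type arrays, which held for 1 of the 10 members, where 5.82% of all genes have groups that do not overlap and 3.18% have them in this direction. That count was 2 when wild-type replicate 1 or 2 or knockout replicate 1 or 3 was left out. Smaller groups separate more easily, and no share over all genes was counted for those settings. The means were 9.10 ± 0.02 and 9.28 ± 0.05 (SD, n = 3 each), so that the knockout signal was 113% of wild type with an interval from 101% to 127%. The log2 difference of 0.18 had a standard error of 0.07, an unadjusted p of 0.0311 and an adjusted p that rounds to 1 in limma. The two-sided exact permutation test gave p = 0.1, the smallest that 3 arrays against 3 allow. With 1 array left out the difference stayed between 0.15 and 0.20, and with a sex term, which rests on knockout replicate 2 alone, it was 0.13. The unadjusted p in these limma fits ran from 0.0443 to 0.104 with 1 array left out, above 0.05 in 4 of the 6, and was 0.260 with the sex term. The wild-type SD of 0.02 lay at the 2.49th percentile of all genes.

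Endothelial signal was compared as well, and the group ranges of its mean overlapped. A positive difference was seen for 46.4% of all genes and for 9 of 10 endothelial genes, whose median was 0.15. Of these, 3 (Pecam1, Cdh5 and Esam) had an unadjusted p under 0.05 in limma, beside 1.70% of all genes. The same 3 were higher in knockout with groups that did not overlap, beside 3.18% of all genes, and 0 were lower. The mean of the 10 genes ran from 8.65 to 8.76 in wild type and from 8.73 to 8.93 in knockout. Of 10 pericyte genes 9 had a positive difference (median 0.11), and 2, Kcnj8 and Vtn, were higher without overlap. Vtn differed by 0.47 (unadjusted p 0.00303 in limma). Of 10 meningeal genes 8 had a negative difference (median -0.13), and the medians of 9 microglial and 4 erythroid genes were 0.05 and -0.04. In these lists Lum and Aif1 were lower without overlap, beside 2.64% of all genes, and both read below the background guide. Endothelium is known to make several Notch proteins. The part of vascular content in the Jag2 value was not tested, and the highest Jag2 array, knockout replicate 3, had the lowest endothelial mean of the knockouts.

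Hes genes showed no common direction. Hes1 and Hes5 had small positive differences with intervals that span 0, and Hes6, not known as a direct Notch readout, had a negative one. Hes1, a Notch-induced repressor of proneural genes, read 7.51, 7.75 and 7.66 in wild type and 7.74, 7.78 and 7.60 in knockout. Its difference was 0.07, with an interval from -0.14 to 0.27, and the groups overlapped. Hes5 read 9.19, 9.38 and 9.45 in wild type and 9.30, 9.43 and 9.38 in knockout. All knockout values lay inside the wild-type range, and the difference was 0.03 (interval -0.18 to 0.24). The knockout signal of Hes5, whose window holds paired RBPJ letters, was 102% of wild type, with bounds of 88.5% and 118%. Hes5 lies on chromosome 4, as Tnc does.

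Hes6 differed from them in sign. It read 9.78, 9.92 and 10.06 in wild type and 9.78, 9.67 and 9.70 in knockout. The lowest wild-type and the highest knockout array met at 9.78, so the groups touch. The means were 9.92 ± 0.14 and 9.72 ± 0.06 (SD, n = 3 each), or 86.8% of wild type with an interval from 75.1% to 100.2%. The log2 difference of -0.20 (standard error 0.09) had an unadjusted p of 0.0529 and an adjusted p that rounds to 1 in limma, and the two-sided exact permutation test gave p = 0.2. It was negative under each array left out, from -0.27 without wild-type replicate 1 to -0.13 without wild-type replicate 3, and it was -0.25 with a sex term.

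**Figure D3:**
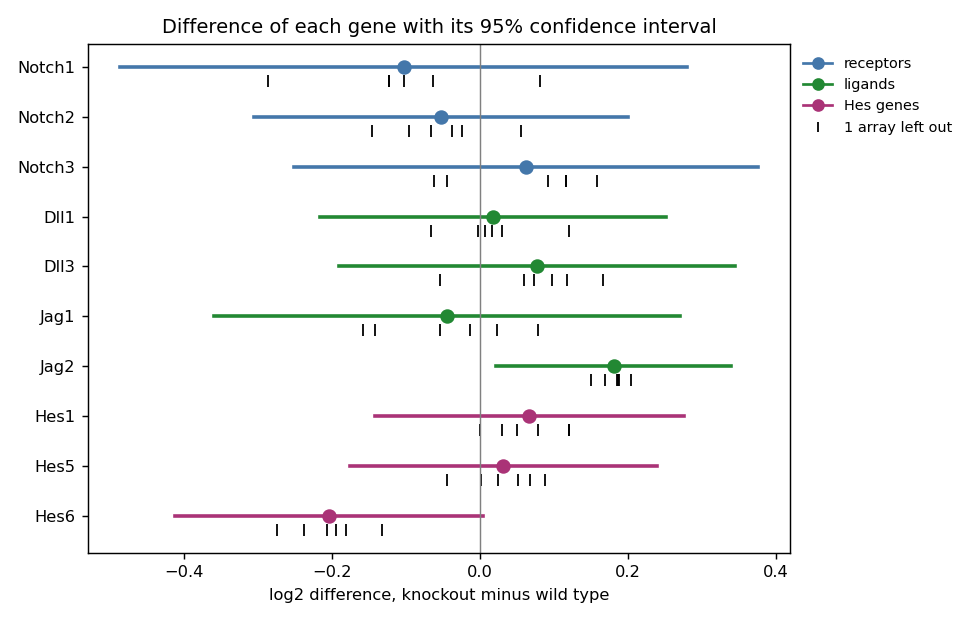
Log2 difference of each gene, knockout minus wild type (horizontal axis), as a point with its 95% confidence interval from limma, coloured by class, and black ticks for the values with 1 array left out. The interval of Jag2 lies above 0, that of Hes6 reaches 0.00325, and those of the other 8 genes span 0.

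Other genes of the pathway, 61 named by their roles, were measured for 56. Of these, 0 passed an adjusted p of 0.05 in limma in either direction. An unadjusted p under 0.05 was seen for 1 of the 56, beside 1.70% of all genes. Positive differences were seen for 27 and negative ones for 29, with a median of -0.00 against -0.01 for all genes. Groups did not overlap for 3 genes higher in knockout and 2 lower, beside background shares of 3.18% and 2.64% of all genes.

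Upstream of the nucleus, values stayed close to level. All 5 further receptors and ligands had positive differences (median 0.06), of which Dlk1, a non-canonical ligand, was the one of smallest p, with a log2 difference of 0.16 and an unadjusted p of 0.254 in limma. Among 9 genes of receptor glycosylation and ligand endocytosis the median was -0.00, and Neurl1a, a ubiquitin ligase of the Neuralized type, differed by 0.09. The 9 measured genes of receptor cleavage lay between -0.05 and 0.03, with Aph1b, a gamma-secretase subunit, at -0.05. Numb and Numbl, adaptors that inhibit Notch, had groups that did not overlap. Numb read 8.99, 8.97 and 8.92 in wild type and 9.09, 9.08 and 9.02 in knockout, a difference of 0.11 (unadjusted p 0.154 in limma), and Numbl differed by 0.07 (unadjusted p 0.359).

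Rbpj, the DNA-binding partner of all Notch receptors, read 10.32, 10.37 and 10.32 in wild type and 10.27, 10.28 and 10.23 in knockout. The groups did not overlap, but the difference was only -0.08, with an unadjusted p of 0.289 in limma and a knockout signal of 94.9% of wild type. Across the 12 measured genes of the nuclear complex and its corepressors the differences lay between -0.08 and 0.04.

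Among 6 further targets, 4 had positive differences and the median was 0.07. Hey1, a target shared by progenitors and endothelium, read 9.44, 9.61 and 9.69 in wild type and 9.71, 9.87 and 9.72 in knockout. Its groups did not overlap, by a margin between 9.69 and 9.71, and the difference of 0.19 had an unadjusted p of 0.0748 in limma and an interval reaching from -0.02. Its highest value was in knockout replicate 2, which also had the highest endothelial mean of all arrays (8.93), and the part of vascular content in it was not tested.

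Proneural and related neurogenic factors, many of which Hes proteins repress, had 5 negative and 2 positive differences among 7 measured, with a median of -0.07. Insm1, a zinc-finger factor of newborn neurons, read 9.01, 9.04 and 9.04 in wild type and 8.76, 8.84 and 8.94 in knockout. All its knockout values were lower, and the difference of -0.19 had an unadjusted p of 0.0369 and an adjusted p that rounds to 1 in limma, with a knockout signal of 87.9% of wild type. Among 10 general neuronal genes 7 had a positive difference (median 0.02), and 2, Snap25 and Gad1, were higher without overlap. Among 10 radial glial genes 8 had a positive difference (median 0.03), and Prom1 was higher without overlap. Prom1 differed by 0.23 (unadjusted p 0.0181 in limma). In both lists 0 genes were lower without overlap. The shares over all genes were 46.4% with a positive difference and 3.18% higher without overlap.

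**Figure D4:**
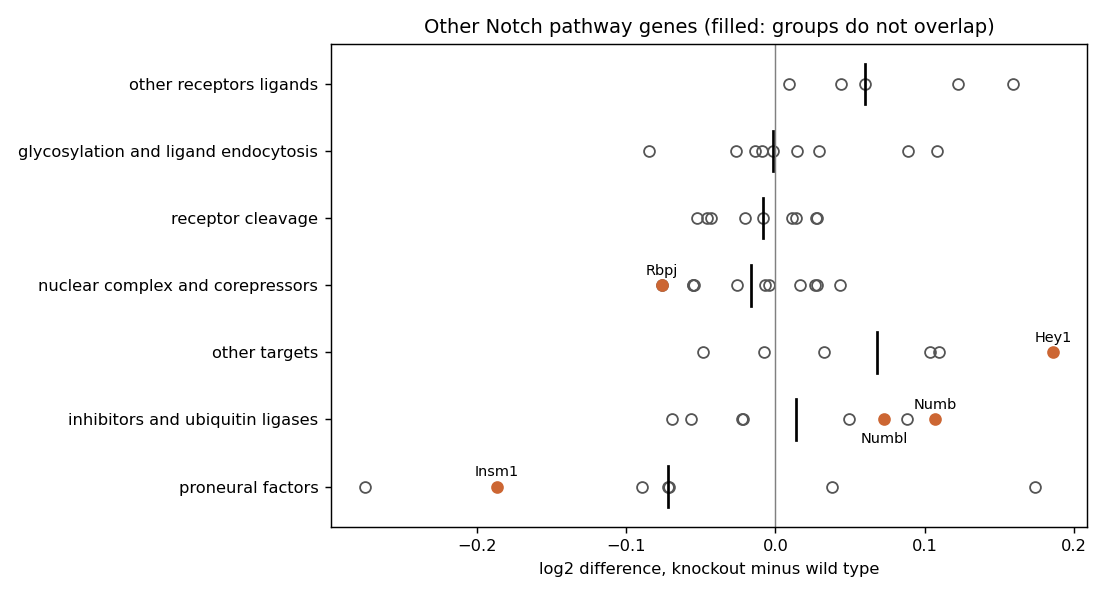
Log2 difference, knockout minus wild type (horizontal axis), of 56 further pathway genes in 7 groups by role (vertical axis), with black bars at group medians. Filled points mark the 5 genes whose groups do not overlap, Rbpj and Insm1 lower and Numb, Numbl and Hey1 higher, and all values lie between -0.27 and 0.19.

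Genes whose pattern over the 6 arrays was most like that of 3 members were sought by the root-mean-square (RMS) difference of values centred on each gene's mean, among genes with at least 0.75 times the member's SD. For Hes5, whose SD over the arrays was 0.10, the nearest were Slc23a4 (RMS difference 0.0092), 4930507D05Rik (0.016) and Olfr1504 (0.016). For Dll1 they were Cldn34c4 (0.021), Plscr3 (0.023) and Nudt13 (0.024), and for Notch3, with an SD of 0.19, they were Cd226 (0.034), Tmem221 (0.039) and S100a2 (0.043). No pathway gene was among these 9, but only 10 members and 56 other pathway genes are among the 19938 genes. Their absence is therefore no result about the pathway. Of the 9 genes, 5 (Slc23a4, Olfr1504, Cldn34c4, Cd226 and S100a2) read below the background guide.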

How the data were processed

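Total RNA of 6 samples was hybridised to whole-transcript arrays annotated as Mouse Gene 1.0 ST. Per the submitters' processing notes the authors used RMA (version not stated), and the deposited table holds its log2 values. RMA can remove a global shift and compress small differences, though the array medians of its values still lay between 6.96 and 7.10. Of 35557 rows, 21789 had exactly 1 gene symbol, 1621 had several and 12147 were not listed in the annotation. Each of 19938 genes was read from its brightest row on average over the arrays, with symbols updated by entrez identifier against RefSeq. No genome build is given for the values.

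Groups were compared with limma 3.58.1 in R 4.3.3 (lmFit and eBayes, group as the only term, two-sided, Benjamini-Hochberg over all genes, threshold 0.05). The fit was first checked on simulated data with independent noise between arrays and planted differences larger than those of any member. That check does not bear on differences of the members' size. The number of arrays limits precision, and p-values measure the spread between these samples. Pathway genes other than Lfng were named where groups did not overlap or, failing that, by the smallest p of each group. Members and lists were chosen with earlier results of these data known. Alternatives were each array left out, wild-type replicates 1 and 3 left out, the replicate number as a block, an intensity trend, array weights, 2 normalizations, a filter on dim genes, other row choices and a sex term.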

Additional observations from a re-analysis of the deposited data

How the results depend on the processing

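None of the 10 members and none of the other pathway genes passed an adjusted p of 0.05 in limma under any of the 16 alternatives run. The count of all genes that passed was 0 to 4 with 1 array left out (4 without knockout replicate 2) and 9 rows when all rows of the table were tested. Of 160 member values under alternatives, 18 had the opposite sign, spread over 8 members, while Jag2 and Hes6 kept theirs throughout.

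With 1 array left out the number of members higher in knockout ran from 1 (without wild-type replicate 1) to 9 (without knockout replicate 1). The number whose groups do not overlap ran from 1 to 2, but smaller groups separate more easily and no share over all genes was counted. The receptor median ran from -0.15 to 0.08, the ligand median from -0.06 to 0.14 and the Hes median from -0.05 to 0.08. The same leave-one-out range was -0.29 to 0.080 for Notch1, -0.15 to 0.055 for Notch2, -0.062 to 0.16 for Notch3, -0.066 to 0.12 for Dll1, -0.055 to 0.17 for Dll3, -0.16 to 0.079 for Jag1 and -0.045 to 0.088 for Hes5.

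Without both wild-type replicates 1 and 3, which leaves wild-type replicate 2 alone with a spread assumed like that of the knockouts, 1 member was higher. The ligand median was then -0.14, and Notch3, Dll1, Dll3, Hes1 and Hes5 were at -0.046, -0.19, -0.10, -0.042 and -0.0080. With array weights, whose estimation stopped before it converged, 3 members were higher, the ligand median was -0.12, and Notch3, Dll1 and Dll3 were at -0.052, -0.15 and -0.089. The cause of these shifts was not tested beyond the arrays named.

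Same-numbered samples did not deviate together in each pair (correlations 0.35, -0.07 and 0.45), so the replicate numbers were not taken as pairs in the main fit. Still, the first component scores and the array medians rose from replicate 1 to replicate 3 in both groups. A shared order by replicate number therefore remains possible. Under the replicate block Jag2 kept its difference of 0.18 with an adjusted p that rounds to 1 in limma, and 0 genes passed. The overlap of groups has no value of its own under the block, trend, weights or sex term.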
